A study of Mus musculus with 7 samples.

Results

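The subject was where retinoic acid receptor α (RARα) and retinoid X receptor α (RXRα) bound the liver genome of mice on the control diet, taken from 1 deposited peak list per receptor. The RARα list held 35521 peaks and the RXRα list held 61128, together 96649 of the 245004 peaks in the 6 lists of the series. Peaks with at least 1 bp in common between the lists were taken as shared and the rest as RARα-only or RXRα-only, which says that the other list had no peak there and not that the other receptor was absent. The series measured chromatin immunoprecipitation followed by sequencing (ChIP-seq) in livers of wild type male C57BL/6 mice aged 3 months. Both lists came from mice on the normal (control) diet, with 1 library per receptor. The remaining lists were RARβ under the control diet and RARα, RARβ and RXRα under a diet with retinoic acid (RA), which the labels give as 1 day and the study's methods give as longer, so the length of the RA diet is not settled. With 1 library per group, no difference between the receptors could be tested, and the 95% Wilson intervals given below cover counting error only. The lists hold no read totals. The study's text gives more uniquely mapped reads for RARα than for RXRα, without naming the diet, so the shorter list belonged to the antibody with the larger stated total, and a list of another length or depth would give other shares.

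RARα and RXRα are nuclear receptors of the retinoid pathway. RARα is activated by all-trans RA and binds DNA as a heterodimer with RXRα, classically at paired copies of a hexamer half-site, of which direct repeats spaced by 5 bases (DR5) are the best known. RXRα is also the obligate partner of the peroxisome proliferator-activated receptor α (PPARα), the farnesoid X receptor (FXR), the liver X receptors (LXR), the pregnane X receptor (PXR) and the constitutive androstane receptor (CAR), which in hepatocytes govern fatty acid oxidation, bile acid handling, sterol export and xenobiotic metabolism.

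Promoters from both ends of the receptors' score ranges are shown first. The sequences are from RefSeq (GRCm38.p6), cover the 250 bases before an annotated start, run 5′ to 3′ on the strand of the gene, and were chosen after the peak values were seen. In the promoters of Cyp26a1, the RA-degrading cytochrome P450, and Rarb, the gene of RARβ and a classical RAR target, the capitals mark a DR5, searched as 2 half-sites AGGTCA in the same orientation, on either strand, with any 5 bases between and with G also allowed as the first base and T as the third. The Cyp26a1 stretch is chr19:37697558-37697807 on the plus strand, with the repeat at position -32 from the start. The Rarb stretch is chr14:16575477-16575726 on the minus strand, with the repeat at position -53.
Cyp26a1: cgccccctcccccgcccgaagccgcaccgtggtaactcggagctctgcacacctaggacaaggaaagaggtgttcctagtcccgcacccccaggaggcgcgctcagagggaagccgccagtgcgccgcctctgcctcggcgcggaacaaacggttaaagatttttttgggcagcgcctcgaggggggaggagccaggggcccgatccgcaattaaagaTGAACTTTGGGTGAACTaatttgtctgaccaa
Rarb: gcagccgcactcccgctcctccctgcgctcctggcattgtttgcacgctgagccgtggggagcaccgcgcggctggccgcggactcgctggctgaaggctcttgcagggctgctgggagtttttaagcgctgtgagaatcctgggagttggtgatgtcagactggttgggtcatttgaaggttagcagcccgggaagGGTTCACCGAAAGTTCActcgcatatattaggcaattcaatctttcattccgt

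The promoters of Srsf7, a splicing factor, and Nop56, a protein of the nucleolar particles that modify ribosomal RNA, stand for high RARα scores. The Srsf7 stretch is chr17:80207306-80207555 on the minus strand, with CCGGAAG, a core of the binding motif of ETS family factors, in capitals at position -218. The Nop56 stretch is chr2:130274162-130274411 on the plus strand, with the GC box GGGCGG, here as its complement CCGCCC, in capitals at position -104.
Srsf7: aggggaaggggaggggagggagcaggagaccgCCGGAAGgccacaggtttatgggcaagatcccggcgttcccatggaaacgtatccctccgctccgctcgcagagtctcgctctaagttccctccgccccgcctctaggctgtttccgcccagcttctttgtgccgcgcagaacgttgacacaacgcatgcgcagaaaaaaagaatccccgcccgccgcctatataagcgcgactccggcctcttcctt
Nop56: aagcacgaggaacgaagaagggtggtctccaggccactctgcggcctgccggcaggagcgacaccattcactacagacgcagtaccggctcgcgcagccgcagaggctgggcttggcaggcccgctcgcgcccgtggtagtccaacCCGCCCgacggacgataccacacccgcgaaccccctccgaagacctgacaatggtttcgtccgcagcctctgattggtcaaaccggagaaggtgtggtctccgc

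The promoters of Abcb11, the bile salt export pump, and Slc51b, a subunit of the basolateral bile acid transporter, stand for high RXRα scores. Each holds the half-site AGGTCA or its complement TGACCT, in capitals, whereas most promoter windows with an RXRα peak held none, as given below. The Abcb11 stretch is chr2:69342617-69342866 on the minus strand with the half-site at position -56, and the Slc51b stretch is chr9:65422774-65423023 on the minus strand with the half-site at position -203.
Abcb11: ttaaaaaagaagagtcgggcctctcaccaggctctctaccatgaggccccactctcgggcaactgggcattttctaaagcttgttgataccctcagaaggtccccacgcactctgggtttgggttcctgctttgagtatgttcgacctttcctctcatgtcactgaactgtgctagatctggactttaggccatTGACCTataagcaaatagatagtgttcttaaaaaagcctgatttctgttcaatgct
Slc51b: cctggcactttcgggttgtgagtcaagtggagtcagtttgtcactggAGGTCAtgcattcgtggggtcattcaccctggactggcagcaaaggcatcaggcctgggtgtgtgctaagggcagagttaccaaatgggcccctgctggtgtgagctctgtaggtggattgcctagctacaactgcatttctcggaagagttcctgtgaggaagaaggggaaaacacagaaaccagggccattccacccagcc

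Peaks of the 2 receptors overlapped at 22133 of 35521 RARα peaks (62.3%, 61.8 to 62.8) and at 22787 of 61128 RXRα peaks (37.3%, 36.9 to 37.7). The RARα-only class held 13388 peaks and the RXRα-only class held 38341. Shared peaks were wider and scored higher than receptor-specific ones: the median width was 666 bp for shared RARα peaks against 481 bp for RARα-only peaks, and 658 bp for shared RXRα peaks against 491 bp for RXRα-only peaks. The score is the peak caller's value, a scaled negative log10 p-value, and depends on depth as well as on occupancy, so below a score is compared across receptors only as its percentile within its own list. The median score was 123 for shared and 98.8 for RARα-only peaks, and 197 for shared and 119.6 for RXRα-only peaks. Where peaks overlapped, they lay over each other. The midpoints of the 23047 overlapping pairs were a median of 87 bp apart, and in 22338 pairs (96.9%) the overlap covered at least 50% of the narrower peak.

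Receptor-specific peaks were seldom near misses. Only 376 RARα-only peaks (2.81%) had an RXRα peak within 200 bp of their edge, and the median gap was 8.99 kb. For RXRα-only peaks the count within 200 bp was 842 (2.20%) and the median gap was 10.05 kb. About as many had a neighbour further off, since 52.6% of RARα-only and 49.9% of RXRα-only peaks had a peak of the other receptor within 10 kb.

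Strong peaks were shared more often in both lists, but the strong peaks of the 2 receptors lay in different places. The shared fraction of RARα peaks was between 56.1% and 57.5% through the lower 7 deciles of the score, then 63.7%, 74.7% and 88.3% in the top 3 deciles. For RXRα it went from 25.5% in the lowest decile to 66.4% in the highest. Over the same deciles, the share of RARα peaks within 1 kb of a protein-coding start rose from 8.75% to 73.4%. The share of RXRα peaks within 1 kb was 14.4% in the lowest decile, reached 19.1% in the sixth and was 8.42% in the highest. Even among shared RXRα peaks it was 41.2% in the lowest decile, 52.6% in the fifth and 11.5% in the highest.

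**Figure D1:**
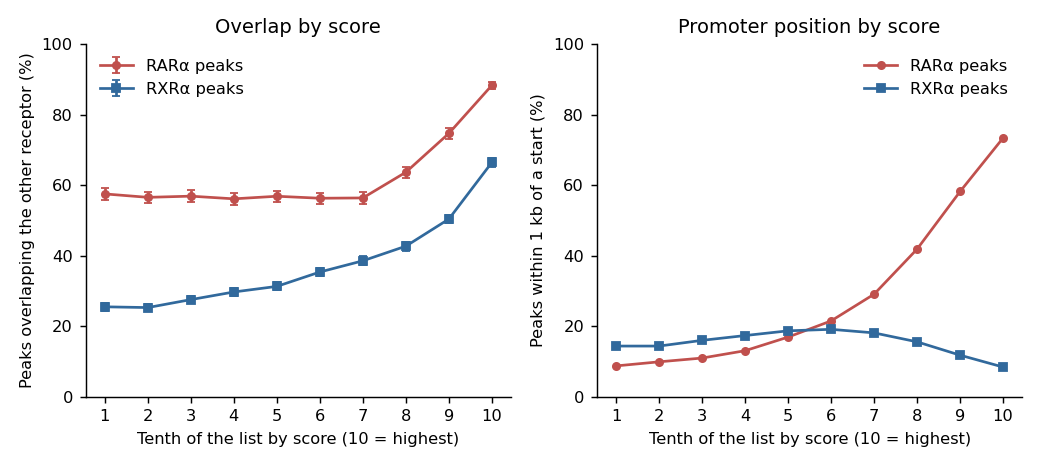
Share of peaks overlapping the other receptor (left, %, bars are 95% Wilson intervals) and share of peaks within 1 kb of a protein-coding start (right, %), by decile of each list ordered by score, for RARα (red circles) and RXRα (blue squares). Both left curves end highest in the top decile (88.3% and 66.4%), whereas on the right RARα climbs to 73.4% and RXRα ends at 8.42%.

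By class, 34.7% of shared RARα peaks (34.0 to 35.3), 18.0% of RARα-only peaks (17.3 to 18.6) and 3.53% of RXRα-only peaks (3.35 to 3.72) had their midpoint within 1 kb of a start. The median distance to the nearest start was 10.1 kb for shared, 18.7 kb for RARα-only and 27.3 kb for RXRα-only peaks, and 34.6% of the last lay beyond 50 kb. Read the other way, RARα was present at 85.6% of the RXRα peaks lying at most 1 kb from a start, against 28.5% of those from 1 to 10 kb, 30.4% from 10 to 50 kb and 26.3% beyond. For RARα the shared fraction was 76.1% within 1 kb and between 55.9% and 57.6% in the 3 more distant zones. Promoter RARα peaks also scored higher (median 225, percentile 77.9). The sex chromosomes were lowest: 45.1% of RARα peaks on X and 59.1% of the 44 on Y were shared, against 59.6% to 66.1% on the autosomes. For RXRα these shares were 25.7% on X and 24.1% on Y, against 33.6% to 40.8%. The mice were male, and the cause of the lower shares was not tested.

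At shared sites the scores of the receptors were not aligned. Over all 23047 pairs the rank correlation of the RARα and RXRα scores was -0.22 (Spearman's rho across pairs, which share their 2 libraries and are not independent). Within 1 kb of a start it was 0.09 over 8244 pairs. It was -0.14 from 1 to 10 kb, -0.16 from 10 to 50 kb and -0.05 beyond 50 kb. The zones differed more in which receptor ranked higher: within 1 kb the median percentile was 82.3 for RARα and 50.3 for RXRα, with RARα the higher in 80.3% of pairs. Beyond 50 kb the medians were 38.0 and 77.8, and RARα was the higher in 24.4%. Pairs in the top quartile of RARα and the bottom quartile of RXRα numbered 992 of 8244 (12.03%) within 1 kb, and the reverse numbered 97 (1.18%). Of the 11328 pairs beyond 10 kb these were 382 (3.37%) and 1947 (17.2%).

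**Figure D2:**
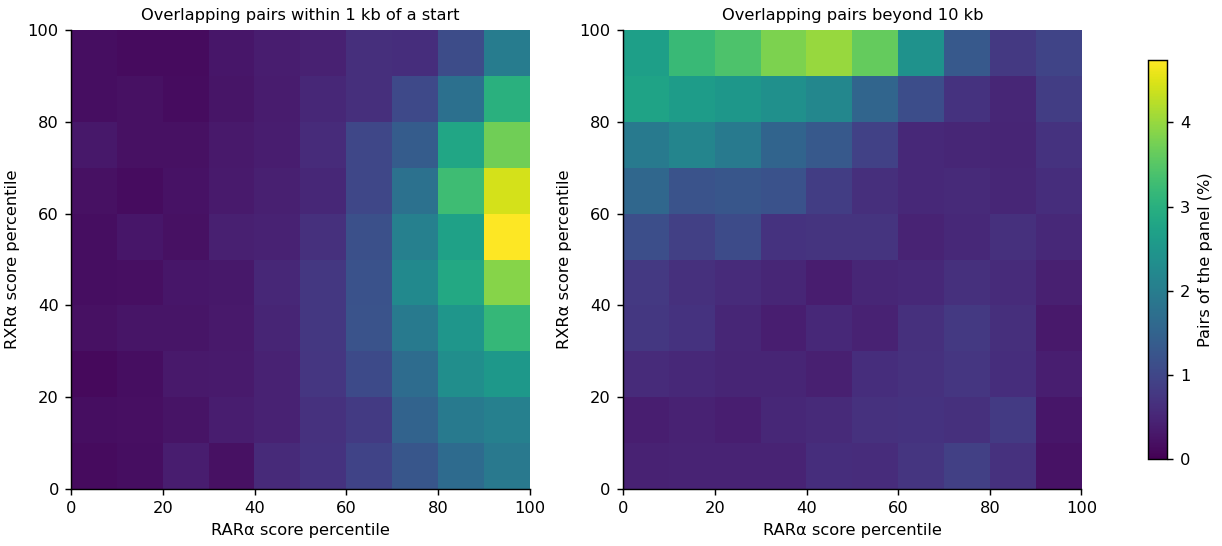
Score percentile of the RARα peak (x axis) against that of the overlapping RXRα peak (y axis), each within its own list, as the percent of the pairs in the panel that fall in each cell (colour). The 8244 pairs within 1 kb of a start (left) crowd at high RARα percentiles, and the 11328 pairs beyond 10 kb (right) crowd at high RXRα percentiles.

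Cutting the RXRα list to its 35521 highest peaks, so that both lists were of equal length, left 15800 RARα peaks shared (44.5%, 44.0 to 45.0) and 15822 RXRα peaks shared (44.5%). The lowest RXRα score kept was 116. Of the 6333 RARα peaks that lost their partner, 2813 (44.4%) lay within 1 kb of a start. The shared fraction within 1 kb therefore went from 76.1% to 48.2%, whereas from 1 to 10 kb it went from 57.6% to 40.5% and beyond 50 kb from 57.5% to 46.2%. Of the 4 zones, the one within 1 kb lost the largest share of its partners. The cut drops RXRα peaks by score, so this loss largely restates the RXRα percentiles of the pairs. Their median was 50.3 within 1 kb, against 65.4, 72.5 and 77.8 in the zones further out.

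The genes of the strongest peaks in each class differed as the positions did. The 5 highest RARα-only peaks near genes all lay within 300 bp of a start. They belonged to Nop56 (score 900.45), Taf4, a subunit of the general transcription factor TFIID (892), Tnrc6c, an argonaute-binding protein of microRNA silencing (844), Hif1a, the hypoxia-inducible factor (840.2), and Txndc11, a thioredoxin-like protein of the endoplasmic reticulum (839). The gaps to the nearest RXRα peak were between 639 bp and 6388 bp, and under the RA diet all 5 sites overlapped an RXRα peak, at percentiles between 18.0 and 56.5.

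The 5 highest RXRα-only peaks lay further from starts. The highest was at chr5:147420862-147422138, at position -8656 from a start of Pan3, a subunit of a deadenylase, and its score of 3108 is 1 of 2 above the value of 3100 at which 6 RXRα peaks tied. The next was at Agpat2, an acyltransferase of triglyceride and phospholipid synthesis, 3925 bp downstream of the start (score 1680.17, percentile 99.9). The others were near Nans (1534), Ccdc38 (1483) and Myh7b (1481). Their gaps to the nearest RARα peak were between 147 bp at Myh7b and 7692 bp at Pan3, and that of Nans was 328 bp, so these 2 were closer to the other receptor than any of the 5 RARα-only peaks. Of these 5 sites, 4 overlapped a RARα peak under the RA diet, at percentiles between 1.08 and 47.1. All 5 overlapped an RXRα peak there, at percentiles of at least 99.6.

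Among shared pairs, the 5 highest in both lists were at Napa, a vesicle fusion adaptor, Dusp23, a phosphatase, Ahcyl1, Narf and Mpc2, a subunit of the mitochondrial pyruvate carrier. At Napa the RARα score was 573 (percentile 98.0) and the RXRα score was 1123 (percentile 99.2), with the RARα midpoint 161 bp upstream of the start. The 5 pairs that favoured RARα most were all within 400 bp of a start, and included Kdm4c, Impdh2, Pccb and Usp33. At Kdm4c, a histone demethylase gene, RARα scored 771 and RXRα 51.5. The 5 that favoured RXRα most were at Podn, Plpp5, Adcy10, Esr1 and Apol7c, of which 4 lay between 6024 bp downstream and position -9262 from a start and that of Adcy10 lay 395 bp upstream. At Esr1, the gene of estrogen receptor α, RARα scored 50.7 and RXRα 912.

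Each of 21536 protein-coding genes was then placed by the peaks whose midpoint lay within 10 kb of one of its starts. Same-site genes, with a RARα peak that overlapped an RXRα peak, numbered 10703 (49.7%). A further 1198 (5.56%) had peaks of both at separate sites, 1519 (7.05%) had RARα peaks alone, 1419 (6.59%) had RXRα peaks alone, and 6697 (31.1%) had neither. For each gene the best percentile of each receptor within 10 kb was taken, with 0 for no peak. Over all genes the medians were 52.4 for RARα and 34.9 for RXRα, RARα being the higher in 44.7% and RXRα in 24.2%. The counts of the lists below are to be read against these shares. Neighbouring genes can take their values from the same peaks, as Hadha with Hadhb and Abcg5 with Abcg8, so counts of genes are not counts of separate sites.

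As a weak check of the liver label, Alb, Ttr, Apoa1, Hnf4a and Serpina1a all had an RXRα peak within 10 kb. So did 13310 of all 21536 genes, and binding is not expression. Alb and Serpina1a had no RARα peak within 10 kb. Of 31 markers of stellate, Kupffer, endothelial and bile duct cells, 13 had neither receptor and 4 were same-site. Of 10 neuronal genes 6 had neither, and of 1108 olfactory receptor genes 1004 had neither. The chromatin was of whole liver, so a site bound in few cells and a site bound weakly in many cannot be told apart.

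Among 24 genes of retinoid handling and RAR signalling, 14 were same-site, 3 had both receptors at separate sites, 3 had RARα alone (Aldh1a3, Bco1 and Lrat), none had RXRα alone and 4 had neither (Crabp1, Crabp2, Cyp26c1 and Stra6). The median best percentile was 54.4 for RARα and 58.1 for RXRα. All 3 genes of the RARs and all 3 of the RXRs were same-site. Rara had 6 RARα peaks (best score 202) and 8 RXRα peaks (471) within 10 kb. Rxrg had 1 of each, scoring 155 and 587. Tgm2, tissue transglutaminase and a classical RA target, led RARα with a score of 555 at a peak 75 bp upstream of the start that no RXRα peak overlapped, and its 3 RXRα peaks within 10 kb were elsewhere. Rdh10, which makes retinaldehyde, and Aldh1a1, which oxidises it to RA, leaned to RARα, with scores of 464 against 132 and 503 against 169. Rbp4, the plasma carrier of retinol, leaned to RXRα (78.3 against 452).

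At Cyp26a1 there were 4 RARα and 3 RXRα peaks. The promoter shown above carried the weakest RXRα peak of the 3 (RARα 79.5, RXRα 51.1, percentiles 31.8 and 1.12). Centred at position -1828, an RXRα peak scored 729 over a RARα peak of 101. The strongest lay 4800 bp downstream of the start, past the annotated 3′ end of the gene, at chr19:37702183-37703032, where RXRα scored 1963 (percentile 99.96) and RARα 63.3 (percentile 17.4). The remaining RARα peak, 6291 bp downstream (86.5), had no RXRα peak. Both receptors thus had peaks at the DR5-bearing promoter and at 2 flanking sites, and RXRα ranked far above RARα at the flanking sites only.

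At Rarb, the promoter peak was the strongest of either receptor in the gene. Its RARα peak scored 265 (percentile 83.0) and its RXRα peak 631 (percentile 94.5), with midpoints 6 bp and 67 bp downstream of the start. Across the rest of the 10 kb zones and the long gene span RARα had 4 further peaks, scoring between 52.1 and 165, and RXRα had 13, scoring between 55.9 and 446. Of the 14 RXRα peaks in all, 3 were shared, so most peaks away from the promoter were RXRα alone.

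Genes of the other RXRα partners ranked higher for RXRα. In the list of PPARα targets and fatty acid oxidation 16 of 24 were same-site, 3 separate and 5 had RXRα alone, and the median best percentile was 78.6 for RARα and 93.0 for RXRα, with RXRα the higher in 21. Those with RXRα alone included Fabp1, the liver fatty acid binding protein (best RXRα score 563), Vnn1, a pantetheinase (845), and Acot1, an acyl-CoA thioesterase (248). At Cyp4a10, a fatty acid ω-hydroxylase, RXRα peaks scored 1210.24 at position -4142 and 685 at 1186 bp downstream, and the RARα peaks of 274 at 98 bp and 57.6 at 4358 bp downstream overlapped neither, although the edge of the first lay close to that of the nearer RXRα peak (RARα to 115518921, RXRα from 115518955 on chromosome 4). Cpt2, a mitochondrial carnitine palmitoyltransferase, led RARα with 579.55 at its start, where RXRα scored 140.48, while the best RXRα peak (652) lay 1726 bp downstream without RARα.

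Of 24 genes of FXR, LXR and bile acid handling 17 were same-site, 5 separate, 1 (Scd1) RXRα alone and 1 (Slc51a) neither. The medians were 70.4 and 93.9, and RXRα was the higher in 17. The Abcb11 promoter shown above scored 1640.16 for RXRα (percentile 99.9) and 109.6 for RARα (percentile 48.9). Slc51b had an RXRα peak of 1095 (percentile 99.1) at its promoter and no RARα peak there. At Cyp7a1, the rate-limiting enzyme of bile acid synthesis, RARα had 1 peak (143) at the start, shared with an RXRα peak of 548, and RXRα had a stronger peak (691) at position -3025 on its own. At Nr0b2, the gene of the corepressor SHP, the 3 RARα peaks scored 180.09, 177 and 77.4 and each overlapped an RXRα peak, of 133, 752 and 771, and a further RXRα peak of 793 at 9987 bp stood alone. Nr1h3, the gene of LXRα, was an exception, with a best RARα score of 714 and a best RXRα score of 349.62, at different sites. The RARα peak of 714 lay over an RXRα peak of 235, at position -7632 from the nearest listed start. That peak covered the outer 5′ end of the annotated gene span, which is not among the listed starts. At the listed starts of Nr1h3, inside the span, the percentiles were close, at 83.2 for RARα and 82.0 for RXRα.

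Of 25 genes of PXR, CAR and xenobiotic metabolism 20 were same-site, and the medians were the furthest apart of all lists: 38.4 for RARα and 89.6 for RXRα, with RXRα the higher in 22. Ces2a, a carboxylesterase, had RXRα at 1507 and RARα at 72.3. Cyp3a11 had 505 and 77.99, and Por, the electron donor of all microsomal P450 enzymes, had 1376 and 349. Cyp2b9, Cyp2c37, Cyp2c55 and Gsta1 had RXRα alone. Alas1, the first enzyme of haem synthesis, went the other way (711 for RARα and 173 for RXRα), under a RARα peak 3698 bp wide. The 29 plasma protein and apolipoprotein genes resembled this list, with 20 same-site, 3 separate, 6 RXRα alone and medians of 51.3 and 89.1. Their 6 with RXRα alone were Ahsg, Alb, Apob, Fga, Serpina1a and Serpina1b. Within 1 kb of a start 14 of the 29 had RXRα alone, against 825 of all 21536 genes (3.83%) at that distance. The 1 kb count goes by peak midpoints, so RARα was not always absent from these starts. At Apoa5 and Hp, counted there as RXRα alone, a RARα peak of 5748 bp and of 6372 bp covered the start with its midpoint further off. Cp, ceruloplasmin, led RXRα with 893 against 121 for RARα.

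Cholesterol synthesis did not follow the other lipid lists. All 20 of its genes had a RARα peak within 10 kb, 18 were same-site and 2 (Nsdhl and Pmvk) had RARα alone, and RARα ranked higher in 19, the medians being 93.8 and 61.5. Idi1, isopentenyl diphosphate isomerase, scored 749.94 for RARα and 121.5 for RXRα at 1 shared site at its start. Msmo1 scored 605 and 115, and Sqle, squalene epoxidase, 439 and 142. Hmgcs1, which makes the precursor HMG-CoA, was the only gene of the list with RXRα the higher by percentile, at 384 and 708. That RXRα peak lay 8192 bp downstream without RARα. At the shared start site of Hmgcs1, RARα ranked higher (percentiles 92.5 and 73.2).

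Gene families that every cell uses also ranked higher for RARα. Of 97 cytosolic ribosomal protein genes 78 were same-site and the medians were 90.4 for RARα and 57.8 for RXRα, with RARα the higher in 81. The 78 mitochondrial ribosomal protein genes gave 86.3 and 61.9, the 49 Nduf genes of respiratory complex I 88.6 and 72.4, the 40 proteasome subunits 85.6 and 57.2, the 56 translation initiation factors 82.4 and 53.7, and the 141 genes of vesicle transport 83.1 and 53.3. For the Nduf genes the gap between the medians was no wider than over all genes. Splicing factors showed the widest gap of these families, with 42 of 45 same-site, medians of 89.1 and 53.2 and RARα the higher in 41. Srsf7 had the highest RARα score of these families (1229, percentile 99.9) over an RXRα peak of 116 (percentile 41.8), and Sf3b1, a core protein of the U2 splicing particle, had 1117 and 129.6. With RXRα cut to equal length, 7556 of all 21536 genes (35.1%) were same-site and 4151 (19.3%) had RARα alone. Under that cut 24 of the 45 splicing genes were same-site and 15 had RARα alone, whereas all 16 same-site genes of the PPARα list stayed same-site. The cut drops RXRα peaks by score, so these counts partly restate the RXRα percentiles of the lists. RXRα still had strong peaks within 10 kb of some members, the highest being at Rab5c (1079), Rps29 (1024) and Psmb10 (1019). Their positions from the start were -9077, -235 and -4575, so only that of Rps29 lay within 1 kb, and that of Rab5c had no RARα peak.

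**Figure D3:**
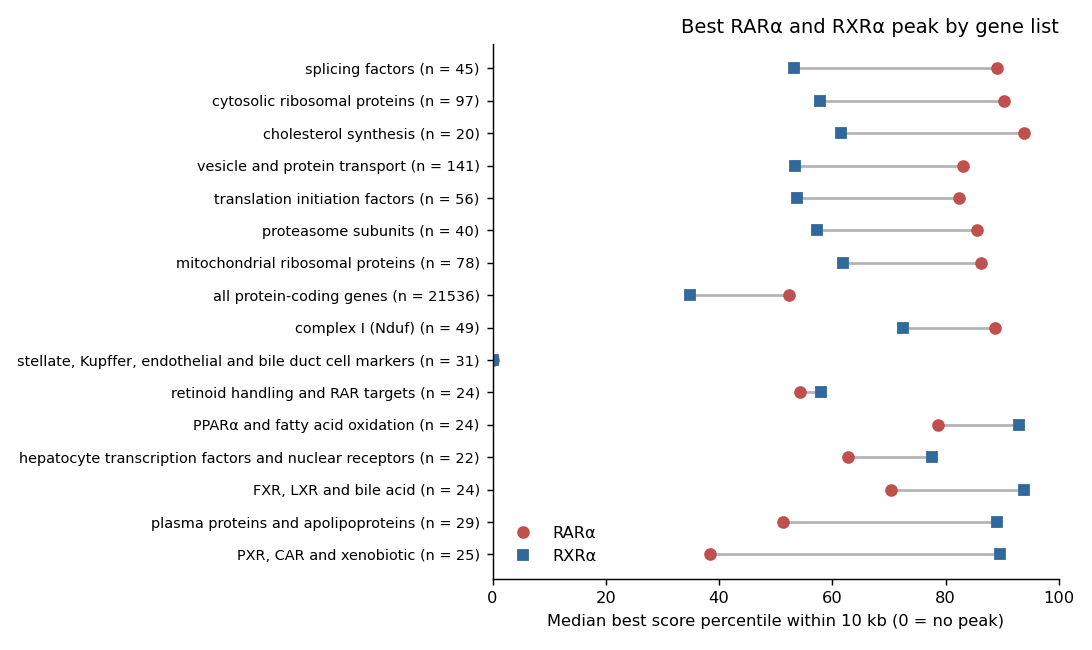
Median over the genes of each list of the best score percentile within 10 kb of a start (0 where there is no peak), for RARα (red circles) and RXRα (blue squares), ordered by the difference. RARα leads from splicing factors (89.1 and 53.2) down to complex I (88.6 and 72.4), and RXRα leads in the lower lists to PXR, CAR and xenobiotic genes (38.4 and 89.6), over all genes the medians are 52.4 and 34.9, and for the 31 markers of other liver cells both are 0.

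Of 22 hepatocyte transcription factors and nuclear receptors 15 were same-site (medians 62.8 and 77.5). Ppara carried the best RXRα peak (1018, at position -3314 and without RARα), while its promoter had RARα at 479 over RXRα at 56.5. Foxa3 leaned to RARα (572 and 175), and Nr1i2 and Nr1i3, the genes of PXR and CAR, to RXRα (876 and 945.5 against 179.83 and 195). Nr2f1 and Nr2f2, the COUP-TF genes, had RARα alone, and Hhex and Onecut1 had RXRα alone.

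A further list held 9 of the genes that the study discusses and not all of them, most of them discussed there for receptor binding and Cbr1 and Ptdss1 for expression. All 9 were same-site, the class of 49.7% of all genes, which is no independent evidence for the genes taken up for binding. Of the others that the study discusses, Cyp2c37 had RXRα alone and Cyp2c38 had both receptors at separate sites. RARα ranked higher in 7 of the 9. Abhd5, a coactivator of triglyceride lipase, scored 814 for RARα and 99.7 for RXRα at its shared start site, and Ptdss1, phosphatidylserine synthase, 431 and 142. Abca1, the sterol exporter, scored 513 for RARα at its start, inside an RXRα peak of 739.88. Over its whole span it had 15 RXRα peaks against 7 for RARα. Cyp7b1, the oxysterol 7α-hydroxylase, had a best RXRα score of 725 and a best RARα score of 80.2, the latter from a RARα-only peak 3152 bp wide.

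**Figure D4:**
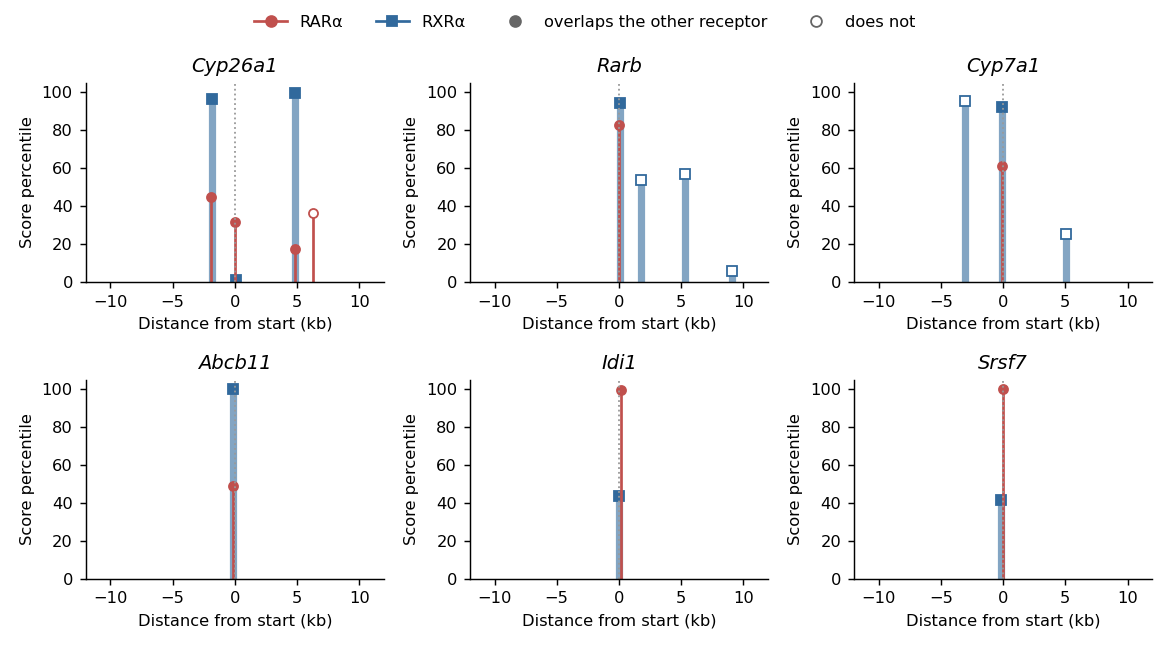
Score percentile (y axis) of every RARα peak (red circles, thin stems) and RXRα peak (blue squares, broad stems) by the distance of its midpoint from the start in kb (x axis, positive downstream), at 6 genes. Filled symbols overlap a peak of the other receptor and open ones do not. RXRα stands above RARα at Cyp7a1, Abcb11 and the Cyp26a1 flanks, and RARα stands above RXRα at Idi1 and Srsf7.

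Promoter sequence differed between the classes in the same direction as the gene lists. Of 21263 promoter windows of 300 bases, 7299 (34.3%) overlapped peaks of both receptors, 2563 (12.1%) RARα alone, 606 (2.85%) RXRα alone and 10795 (50.8%) neither. The median GC content was 61.7% with both, 62.7% with RARα alone, 54.7% with RXRα alone and 50.7% with neither, and the ratio of observed to expected CpG was 0.802, 0.785, 0.421 and 0.264. GGGCGG, on either strand, was in 67.7% of windows with both, 69.0% with RARα alone and 38.6% with RXRα alone, against 46.2% of all windows. CCGGAAG was in 22.1%, 17.8% and 6.60%, against 11.6% of all. The receptor half-site AGGTCA ran the other way, being in 13.4% with both, 7.65% with RARα alone and 22.3% with RXRα alone, against 14.7% of all. Windows with neither receptor held GGGCGG in 26.7%, CCGGAAG in 3.21% and AGGTCA in 16.8%. Windows with RXRα alone thus exceeded those with neither for all 3 motifs, and windows with both had AGGTCA less often than those with neither.

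The same held within the 7299 windows bound by both. From the lowest to the highest quartile by RARα percentile the share with AGGTCA went from 18.3% to 10.9% and the share with GGGCGG from 54.9% to 76.4%. By RXRα percentile the share with AGGTCA went from 8.60% to 19.5% and that with GGGCGG from 68.7% to 61.6%. Windows with a DR5 were rare, 17 of all 21263 (0.08%), and only 3 overlapped both receptors, those of Cyp26a1, Rarb and Blvrb, while the other 14 overlapped neither. A letter match is a description and not a binding site, and windows without one say nothing of the receptor.

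**Figure D5:**
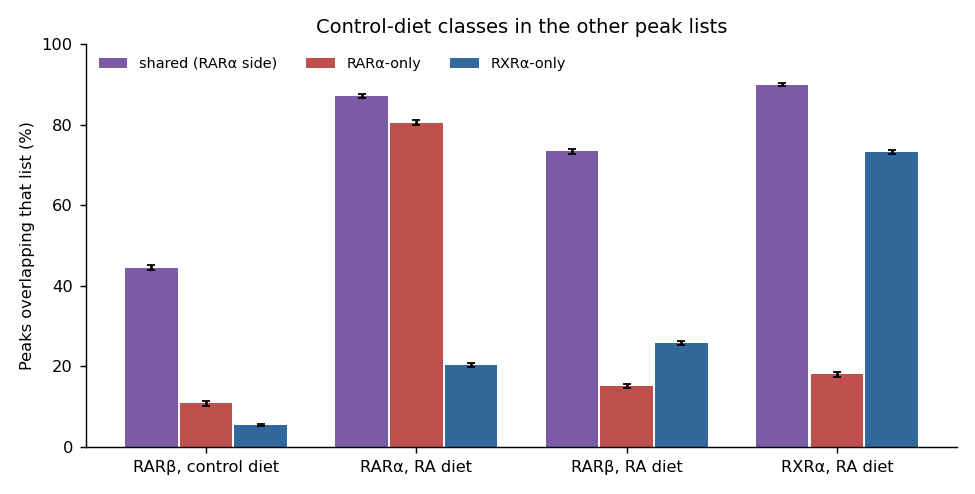
Percent of control-diet peaks that overlap a peak in each of the 4 other lists (x axis), for shared peaks counted on the RARα side (purple), RARα-only (red) and RXRα-only (blue) peaks, with 95% Wilson intervals. Shared peaks have the tallest bar in every list, and each receptor-specific class is found mainly in the RA-diet list of its own receptor (80.5% and 73.1%).

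The 4 lists that the classes did not use separated them again. Of shared peaks, counted on the RARα side, 44.4% overlapped a RARβ peak under the control diet, against 10.8% of RARα-only and 5.46% of RXRα-only peaks. Under the RA diet, 80.5% of RARα-only peaks overlapped a RARα peak and 18.1% an RXRα peak, and 73.1% of RXRα-only peaks overlapped an RXRα peak and 20.4% a RARα peak. RARβ under RA overlapped 73.4% of shared, 15.1% of RARα-only and 25.8% of RXRα-only peaks. Of the 13388 RARα-only peaks 2171 (16.2%) overlapped peaks of both receptors under RA, and of the 38341 RXRα-only peaks 7300 (19.0%) did. These 7300 had a median control score of 245, against 134 for those that overlapped RXRα alone. Promoter RARα-only peaks gained an RXRα overlap under RA more often (40.2%, 38.3 to 42.2) than those beyond 10 kb (12.4%, 11.7 to 13.1). With 1 library per receptor and diet, diet and library cannot be told apart.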

How the data were processed

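ChIP-seq peak lists of RARα and RXRα from control livers were taken as deposited, and the 4 other lists were used only for overlap. Per the study's methods the authors mapped reads to mm10 (Bowtie 0.12.7) and took peaks from MACS 1.4.1. The deposited score of each peak was read as the MACS value, a scaled negative log10 p-value. All scores were 50 or higher. An input library was sequenced and is not used here. The build was checked against chromosome ends: 98 RARα and 169 RXRα peaks lay past the ends of NCBIM37.

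Overlaps were computed in Python 3.11.15 and checked with bedtools 2.31.1. Starts were taken from RefSeq GRCm38.p6, as listed starts for 17492 genes, and for 4044 others as the outer end of the gene span with its strand matched by symbol or synonym in GENCODE; 351 protein-coding genes had none. Distances ran from peak midpoints. Wilson intervals were at 95%. Motifs were searched on both strands of RefSeq promoter windows; peaks were not searched, since no GRCm38 genome was used. The scripts were tested on simulated peaks.

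The classes, gene lists and shown sequences were chosen with earlier results of these data known. Named genes were the 5 highest per class within 10 kb of a start (leaving out the tied top score of 3100), the 5 pairs most unequal in percentile each way, the leaders of each list, 9 genes the study discusses, and Cyp26a1, Rarb, Nr0b2 and Cyp7a1. Other genes were named after their values were seen, and some members of the lists and classes are not reported here. Alternatives varied the overlap rule, list length, score minimum, start set and gene distance. No test was possible with 1 library per group.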

Additional observations from a re-analysis of the deposited data

How the results depend on the processing

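The shared fraction depended on the rule. For RARα it was 61.1% with an overlap of at least 25% of each width, 50.8% with 50%, 50.5% with midpoints within 200 bp, 44.5% with lists of equal length, 48.3% with scores of at least 100 in both lists and 66.6% with that minimum on RARα alone. For RXRα these values were 36.0%, 29.5%, 29.4%, 44.5%, 24.7% and 43.1%. The share within 1 kb of a start kept its order, shared over RARα-only over RXRα-only, in each setting tried. It was 30.7%, 26.5% and 2.81% with equal lengths, 51.2%, 33.5% and 3.91% with scores of at least 100, 37.8%, 20.8% and 5.69% with genes of all kinds, and 31.4%, 15.9% and 3.16% with only the outermost start of each gene, an alternative chosen after seeing the data. With the 25% overlap it was 4.29% for RXRα-only peaks. Same-site genes numbered 6978 with scores of at least 100. Genes with RARα alone numbered 4151 with equal lengths and 2570 with that score minimum, and genes with RXRα alone 773 with equal lengths and 825 within 1 kb. Fewer peaks enter under the score and length settings by construction; the causes of the other shifts were not tested. No paired analysis was possible because each receptor had 1 library. The lists were not brought to equal depth, since they hold no reads; the study's text gives a larger read total for RARα, without naming the diet, and the part of depth in the shared fractions was not tested.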

Other observations

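The RARα list held more very wide peaks than the RXRα list. Of 35521 RARα peaks 168 (0.47%) were wider than 3000 bp, and 118 of them had their midpoint inside a protein-coding gene, of which they covered a median of 16.4%. Of these 118, 6 fell in genes of the plasma protein list, which holds 29 of the 21536 genes. Of 61128 RXRα peaks 44 (0.07%) were that wide, 14 of them with the midpoint inside a gene. The RARα peaks included 15 with the midpoint in genes of the major urinary proteins, abundant secreted products of mouse liver whose near-identical copies make the placement of reads uncertain. Among the widest, the peak over Mup10 was 8725 bp wide (score 51.3) and spanned the whole gene. The same was so at Pck1, the gluconeogenic phosphoenolpyruvate carboxykinase (8504 bp, score 61.6), and at Hp, haptoglobin (6372 bp, score 97.9). At Rbp4 a peak of 7295 bp covered 82.8% of the gene, and at Ttr, transthyretin, one of 5988 bp covered 55.3%. At Alb, albumin, a peak of 4848 bp covered 17.6% of the gene, too far from the start to count within 10 kb.

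The wide RARα peaks had a median score of 168 (percentile 67.3). Of the 168, 146 (86.9%) overlapped an RXRα peak and 58 overlapped 2 or more, so a shared call there can rest on a narrow RXRα peak inside a long RARα region. Under the RA diet the RARα list held 161 peaks of that width and the RXRα list 89. They were noticed after the data were seen, and their relation to transcription was not tested, since no expression values were used.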
